A study of Mus musculus with 6 samples.

Results

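The circadian clock genes examined here are Clock, Per1, Per2, Per3, Cry1, Cry2, Nr1d1, Nr1d2, Dbp and the BMAL1 gene, which the count table lists as Arntl. They were chosen by gene symbol, each was found on 1 line of the table, and together they are 10 of 40428 features. All 10 passed the low-count filter, as did 19272 features in all. RNA sequencing covered subcutaneous white fat of C57BL/6J mice on regular chow at room temperature, with 1 library per mouse. The 3 ANKO mice lacked Nampt in adipocytes, through a floxed Nampt gene and an adiponectin-Cre transgene, and the 3 control mice were flox/flox. Age and the time of day at which the tissue was taken are not given in the labels, and neither is whether the controls carried Cre. Whole tissue was used, so the values mix adipocytes with vascular, stromal, immune and nerve cells, in which Nampt was not targeted. Fewer cells of a type and less RNA per cell cannot be told apart in such samples.

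The clock is a feedback loop of transcription that runs in nearly every cell, fat cells included, with a period of about a day. CLOCK and BMAL1 bind E-boxes and switch on the Per, Cry, Nr1d and Dbp genes, PER and CRY proteins then repress CLOCK and BMAL1, and the REV-ERB receptors encoded by Nr1d1 and Nr1d2 repress Arntl. Transcripts of Dbp, Nr1d1 and Per3 therefore peak at about the time when Arntl is low. Nampt is itself a known clock-controlled gene, and the NAD made through its product is used by SIRT1, which acts on clock proteins; that link is why clock genes are of interest in a Nampt knockout.

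The regulatory letters of this loop can be read in the promoters of several of these genes. RefSeq (GRCm38.p6) gave 13 windows, each of 250 bases before to 50 bases after an annotated start, for 9 of the 10 genes; Per2 was not among them. Both strands were searched for the E-box CACGTG, the related letters CACGTT, the D-box letters TTATGTAA and TTACGTAA bound by DBP and its relatives, the core of the ROR and REV-ERB element as TAGGTCA or TGGGTCA, and the cAMP element TGACGTCA. The 4 windows below are shown because they hold the E-boxes, the D-boxes and the REV-ERB element of the loop; capitals mark the matches, and each is written 5′ to 3′ on the strand of its gene.
Arntl, chr7:113207261-113207560, plus strand: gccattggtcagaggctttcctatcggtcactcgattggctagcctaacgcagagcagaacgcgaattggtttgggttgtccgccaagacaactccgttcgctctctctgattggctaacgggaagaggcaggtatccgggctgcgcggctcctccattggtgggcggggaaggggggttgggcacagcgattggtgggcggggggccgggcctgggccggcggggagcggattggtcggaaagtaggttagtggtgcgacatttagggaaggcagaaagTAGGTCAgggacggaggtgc
Per1, chr11:69098699-69098998, plus strand: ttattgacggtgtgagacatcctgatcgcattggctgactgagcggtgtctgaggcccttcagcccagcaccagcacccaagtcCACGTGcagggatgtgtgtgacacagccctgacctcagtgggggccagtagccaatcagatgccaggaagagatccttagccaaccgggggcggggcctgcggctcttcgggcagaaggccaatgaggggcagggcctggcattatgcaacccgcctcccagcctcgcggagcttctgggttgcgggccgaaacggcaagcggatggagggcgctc
Cry1, chr10:85185005-85185304, minus strand: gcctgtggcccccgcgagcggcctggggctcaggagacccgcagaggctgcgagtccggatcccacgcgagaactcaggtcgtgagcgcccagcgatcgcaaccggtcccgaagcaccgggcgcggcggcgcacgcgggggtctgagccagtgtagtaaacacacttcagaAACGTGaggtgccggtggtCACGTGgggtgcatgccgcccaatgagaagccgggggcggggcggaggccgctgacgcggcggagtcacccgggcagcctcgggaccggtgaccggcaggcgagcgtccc
Per3, chr4:151044616-151044915, minus strand: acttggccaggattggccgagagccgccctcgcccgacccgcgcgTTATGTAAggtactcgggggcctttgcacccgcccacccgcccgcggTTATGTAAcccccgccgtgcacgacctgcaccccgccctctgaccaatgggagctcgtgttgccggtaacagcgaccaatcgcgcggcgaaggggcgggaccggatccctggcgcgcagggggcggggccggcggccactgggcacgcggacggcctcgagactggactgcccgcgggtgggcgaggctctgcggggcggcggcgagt

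The Arntl window holds TAGGTCA, which lies 30 to 36 bases after the start; 2.61% of all 32817 promoter windows hold these letters. The Per1 and Cry1 windows each hold CACGTG, found in 7.15% of all windows. CACGTT, read on the other strand, stood in the windows of Cry1, Cry2 and Nr1d1, against 4.69% of all windows. The Per3 window holds TTATGTAA at 2 places, while 0.935% of all windows hold it at all. None of the 13 windows held TTACGTAA, TGGGTCA or TGACGTCA, which stood in 0.119%, 3.98% and 1.79% of all windows. No match to any of the searched letters stood in the windows of Dbp, Nr1d2 and Clock. The other Per1 window and the other Arntl window also held none. The matches describe the letters in a short window and are not measured binding sites.

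The libraries held 19748962 to 23860596 counts and no pair agreed within sampling noise (chi-square per degree of freedom 33.5 to 96.9). The targeted gene was checked first. Nampt had normalised counts of 48.6, 50.2 and 47.0 CPM in ANKO 1, 2 and 3, against 83.6, 93.0 and 87.0 CPM in controls 1, 2 and 3 (CPM, library-size-scaled counts after TMM). Its log2 fold change, ANKO over control, was -0.85 (SE 0.0776, adjusted p = 0.00416 by edgeR's quasi-likelihood test). The adipocyte markers took 0.382% to 0.606% of the counts in ANKO and 0.636% to 1.03% in controls. All 7 had a negative log2 fold change, 2 of them with an adjusted p under 0.05 by edgeR, beside 1.1% of all genes called lower. The macrophage markers took 0.0575% to 0.0670% in ANKO and 0.0386% to 0.0478% in controls. In all 6, every ANKO library lay above every control, as in 9.19% of all genes. Of the 6, 1 had an adjusted p under 0.05, beside 0.488% of all genes called higher. The skeletal muscle markers took 0.00945% to 1.81% in ANKO and 0.149% to 0.901% in controls. The fibroblast and preadipocyte markers took 0.420% to 0.729% in ANKO and 0.356% to 0.475% in controls. The 4 brown adipocyte markers took 0.00353% to 0.00491% in ANKO and 0.00174% to 0.00344% in controls, where Ucp1 had 0 counts in control 1. None of the 4 passed edgeR's test, and they did not share a direction. The log2 fold changes were 2.43 for Ucp1 and 0.79 for Cidea (unadjusted p = 0.0525 and 0.0526 by edgeR). In both, every ANKO library lay above every control. Those of Cox7a1 and Dio2 were -0.07 and -1.39, and Dio2 alone had an unadjusted p under 0.05. The part of these differences in the values below was not tested, other than by a fit with the muscle share as a covariate.

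The comparison asks whether the loss of adipocyte Nampt altered clock gene expression in this depot. No clock gene passed the test. By edgeR, 0 of 10 had an adjusted p under 0.05 in either direction, against 1.59% of all genes tested, 0 of 10 had an unadjusted p under 0.05, against 12.9% of all genes, and by DESeq2 and limma-voom the count was also 0. In none of the 10 did the ANKO values all lie on one side of the control values, as they did in 19.4% of all genes. The 95% intervals of the fold changes bound what could have been missed: over the 10 genes they ran from 0.625 at the lowest to 1.82 at the highest. With 3 mice per group, a fold change inside the interval of its gene was not excluded, so these values do not show that the genes were equal.

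**Figure D1:**
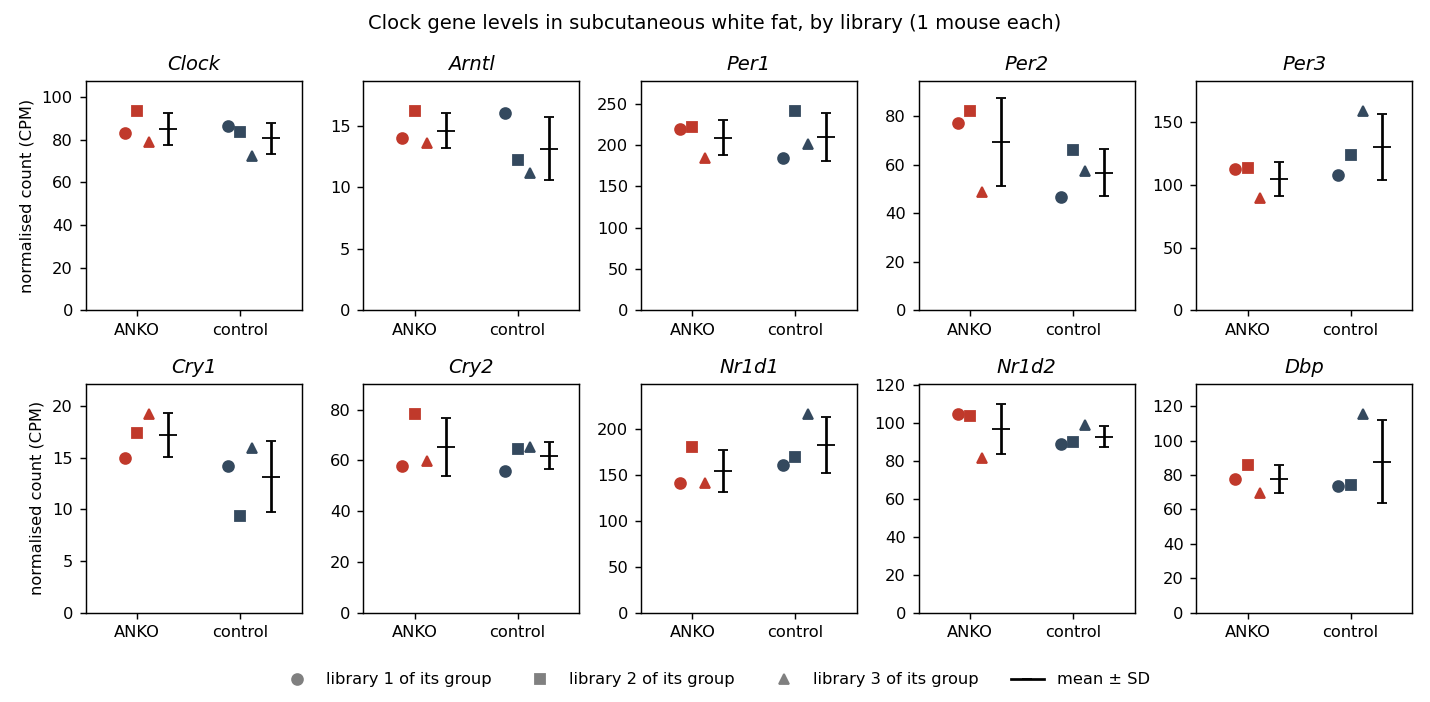
Normalised counts (CPM, linear axes from 0) of the 10 clock genes in 3 ANKO and 3 control libraries; points are libraries and the black bars are mean ± SD. In every panel the ANKO and control points overlap in range, and control 3 is the highest library for Per3, Nr1d1 and Dbp.

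Gene positions are from GENCODE M21 (GRCm38). Of the activators, Clock (chromosome 5, 76209868 to 76304792, minus strand), whose product pairs with BMAL1, had 83.1, 93.6 and 79.0 CPM in ANKO 1, 2 and 3, against 86.4, 83.5 and 72.3 CPM in controls 1, 2 and 3. ANKO 2 was the highest and control 3 the lowest library, and the other values lay between them in mixed order. Clock had the smallest SE of the 10 genes on the log2 scale (0.101), with a fold change of 1.06 (log2 0.08, 95% interval of the fold 0.898 to 1.24, adjusted p = 0.829). Without any 1 library the log2 value ran from 0.0063 (without ANKO 2) to 0.13. Arntl (chromosome 7, 113207465 to 113314126, plus strand), the BMAL1 gene, had 14.0, 16.2 and 13.6 CPM in ANKO, against 16.0, 12.2 and 11.1 CPM in controls. ANKO 2 and control 1 stood together at the top and control 3 at the bottom. The counts of Arntl were low, at 333, 374 and 293 in ANKO and 366, 242 and 216 in controls. Its fold change was 1.11 (log2 0.15, 95% interval -0.23 to 0.54, adjusted p = 0.782), and its log2 value was 0.06 without control 3, 0.07 without ANKO 2, 0.10 without control 2 and 0.32 without control 1.

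Of the PER repressors, Per1 (chromosome 11, 69095217 to 69109960, plus strand), which also answers acutely to glucocorticoids and cAMP, had 220.0, 222.3 and 184.7 CPM in ANKO, against 185.1, 241.6 and 201.8 CPM in controls. The means were 209.0 ± 21.1 CPM in ANKO and 209.5 ± 29.0 CPM in controls (SD, n = 3 each). The log2 fold change was -0.0033 (SE 0.125), with a sign that turned positive under RLE scaling (0.0048) and without control 2 (0.11) or ANKO 3 (0.08). Per2 (chromosome 1, 91415982 to 91459324, minus strand), a partner of CRY in repression, had 77.1, 82.1 and 48.5 CPM in ANKO, against 46.7, 65.9 and 57.2 CPM in controls. ANKO 1 and 2 were above every control, while ANKO 3 was below controls 2 and 3. Its log2 fold change was 0.29 (SE 0.219, adjusted p = 0.673), and without any 1 of the libraries it ran from 0.15 to 0.49, with no call. Per3 (chromosome 4, 151003652 to 151044665, minus strand) had 112.6, 113.2 and 89.4 CPM in ANKO, against 108.3, 123.8 and 159.2 CPM in controls. Control 1 lay among the ANKO values and control 3 stood highest. Per3 had the smallest p of the 10 genes, with a log2 fold change of -0.31 (SE 0.158, 95% interval -0.68 to 0.05, adjusted p = 0.476). Without control 3 its log2 fold change was -0.13, and without ANKO 3 it was -0.21.

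Of the CRY repressors, Cry1 (chromosome 10, 85131700 to 85185064, minus strand) had 15, 17.4 and 19.3 CPM in ANKO, against 14.2, 9.32 and 15.9 CPM in controls. Control 2 was the lowest library and control 3 lay above ANKO 1. Cry1 had the largest fold change of the 10 genes in size, 1.31 (log2 0.39, 95% interval of the fold 0.942 to 1.82, adjusted p = 0.496), but that place rested on control 2 and on ANKO 3. Without control 2 its log2 fold change was 0.19, below the 0.41 of Per2 in the same fit, and without ANKO 3 it was 0.30, below the 0.49 of Per2. Its counts were low, at 357, 402 and 415 in ANKO and 325, 185 and 309 in controls. Cry2 (chromosome 2, 92403646 to 92434043, minus strand) had 57.7, 78.4 and 59.6 CPM in ANKO, against 55.7, 64.4 and 65.3 CPM in controls. ANKO 2 alone was above the controls, and without it the log2 fold change was -0.08 in place of 0.08 (adjusted p = 0.877 with all libraries).

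Of the REV-ERB receptors, which repress Arntl, Nr1d1 (chromosome 11, 98767932 to 98775333, minus strand) had 140.5, 180.4 and 140.7 CPM in ANKO, against 160.4, 169.4 and 216.4 CPM in controls. ANKO 1 and 3 lay below every control and ANKO 2 above controls 1 and 2. The fold change was 0.845 (log2 -0.24, 95% interval of the fold 0.668 to 1.07, adjusted p = 0.568), and leaving out 1 library moved the log2 value to -0.09 without control 3 and to -0.37 without ANKO 2. Nr1d2 (chromosome 14, 18204054 to 18239127, minus strand) had 104.8, 103.6 and 81.2 CPM in ANKO, against 88.9, 89.8 and 98.9 CPM in controls. ANKO supplied the highest and the lowest values, around a tight set of controls, and the fold change was 1.04 (log2 0.06, 95% interval of the fold 0.872 to 1.25, adjusted p = 0.890). Without any 1 library the log2 value ran from 0.0078 (without ANKO 2) to 0.17 (without ANKO 3).

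Dbp (chromosome 7, 45705088 to 45710203, plus strand), the output factor that binds D-boxes, had 78.0, 85.7 and 69.8 CPM in ANKO, against 73.4, 74.3 and 115.7 CPM in controls. Control 3 was far above the other libraries, which lay between 69.8 and 85.7 CPM. Dbp had a log2 fold change of -0.17 (SE 0.187, adjusted p = 0.782), and without control 3 it was 0.09 (adjusted p = 0.863), so its sign rested on that library. The exons of Dbp overlap those of Sphk2 on the opposite strand over 539 bases, 18% of the Dbp exon length, and those of Nr1d1 overlap Thra over 263 bases. Cry2 overlaps the transcript D930015M05Rik over 295 bases and Arntl overlaps Gm45355 over 33 bases, both on the opposite strand. Whether strand was used in counting is not stated, and reads in these stretches cannot be assigned with certainty. Sphk2 stood at 55.3 ± 5.06 CPM in ANKO and 53.1 ± 2.65 CPM in controls, and Thra at 98.4 ± 13.9 and 107.6 ± 11.2 CPM in ANKO and controls (SD, n = 3 each).

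**Figure D2:**
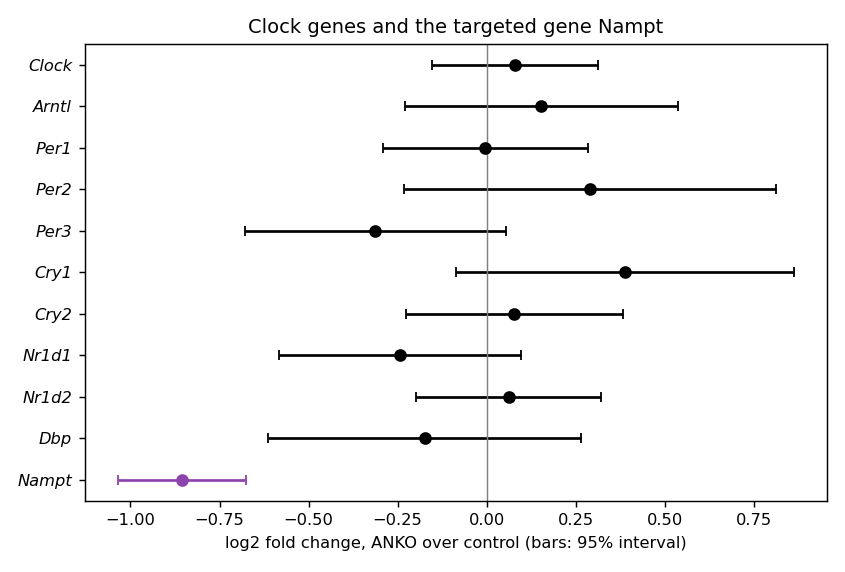
Log2 fold change, ANKO over control, with its 95% interval for the 10 clock genes and, at the bottom, Nampt. All 10 clock intervals span 0, while that of Nampt runs from -1.03 to -0.68.

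By sign, 6 of the 10 clock genes had a positive and 4 a negative log2 fold change, with Per1 among the 4 under TMM and among the positive ones under RLE scaling. The median was 0.07, beside 0.000676 over all genes tested. Per length of exon (GENCODE M21), which allows genes to be compared, the mean level over the 6 libraries was highest for Nr1d1, at 54.6 ± 9.27 CPM per kb, followed by Per1 (37.2 ± 4.03), Dbp (27.7 ± 5.68) and Nr1d2 (17.5 ± 1.73). Per3, Per2 and Cry2 came next at 12.3 ± 2.42, 10.8 ± 2.51 and 10.1 ± 1.30 CPM per kb (SD, n = 6). These 3 could not be ordered, since Per3 was above Per2 in 4 of 6 libraries and Per2 above Cry2 in 3 of 6. Clock (6.05 ± 0.522), Cry1 (4.55 ± 1.02) and Arntl (1.84 ± 0.269 CPM per kb) closed the order. The ranges did not overlap between Nr1d1 and Per1, between Dbp and Nr1d2, between Cry2 and Clock, or between Cry1 and Arntl, whereas those of Clock and Cry1, of Per1 and Dbp and of Nr1d2 and Per3 did. The exon lengths include every annotated transcript, so a gene with long, little-used exons, such as Clock with 13727 bases, is placed lower than its transcripts would be.

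The clock genes varied between mice of the same group. For all 10 the within-group SD of log2 CPM was above the median of the 500 genes nearest in level, from the 59.7th percentile for Clock to the 96.2nd for Per2. The highest library was 1.29 times the lowest for Nr1d2 and 2.07 times for Cry1, with the other genes between. Within a library, genes that peak opposite to Arntl can be set against it, and here control 3 had the largest differences. It had the highest Dbp, Nr1d1 and Per3 and the lowest Arntl and Clock of the 6 libraries. Per1 was highest in control 2 and Per2 in ANKO 2. Control 3 was also at an end of the range for several cell type markers. Of the 6 libraries it had the highest shares of adipocyte (1.03%), endothelial (0.0782%) and red blood cell markers (0.0332%), and the lowest of macrophage (0.0386%) and epithelial markers (0.0155%, against 0.0517% to 0.0754% in ANKO and 0.0646% and 0.121% in controls 1 and 2). Their part in the clock gene values was not tested. The log2 CPM of Dbp minus that of Arntl was 2.48, 2.40 and 2.36 in ANKO 1, 2 and 3, against 2.20, 2.61 and 3.38 in controls 1, 2 and 3. For Nr1d1 minus Arntl the values were 3.33, 3.48 and 3.37 in ANKO, against 3.32, 3.80 and 4.28 in controls. For Per3 minus Arntl they were 3.01, 2.81 and 2.71 in ANKO, against 2.76, 3.34 and 3.84 in controls. For Nr1d1 and Per3, control 2 thus lay about midway between controls 1 and 3. In these 3 differences, which share Arntl, the ANKO libraries lay within 0.12, 0.15 and 0.29 of each other and the controls spread over 1.18, 0.96 and 1.08. The difference Per2 minus Cry1, which leaves out Arntl, did not have this pattern. It was 2.36, 2.24 and 1.33 in ANKO, against 1.72, 2.82 and 1.85 in controls, a range of 1.03 in ANKO and 1.11 in controls. Dbp and Clock, also without Arntl, differed from that pair. The log2 CPM of Dbp was 6.287, 6.422 and 6.126 in ANKO, where Clock had 6.379, 6.550 and 6.306. In controls 1, 2 and 3 Dbp had 6.199, 6.218 and 6.855, and Clock 6.435, 6.385 and 6.177. Only in control 3 was Dbp above Clock. These pairs were picked from many possible ones. No test was made of the spread, and the time of sampling of each mouse is not known.

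**Figure D3:**
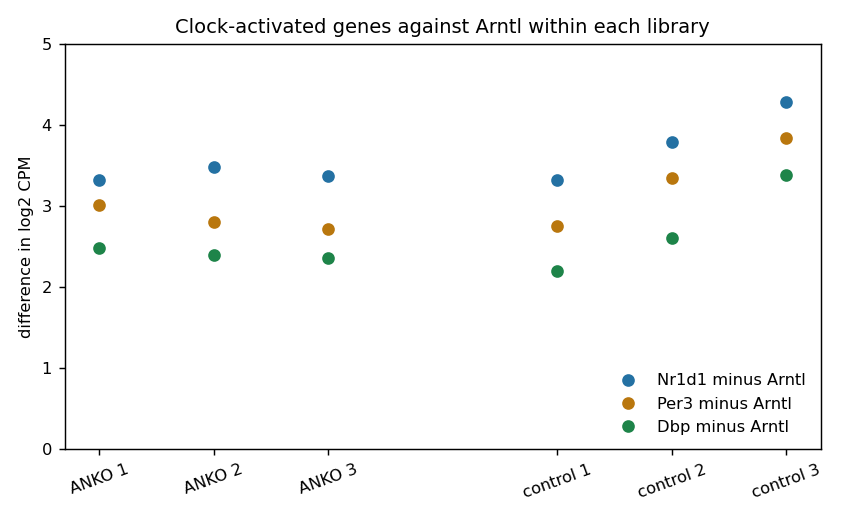
Log2 CPM of Nr1d1, Per3 and Dbp minus log2 CPM of Arntl in each ANKO and control library. For these 3 differences, which share Arntl, the ANKO points lie within 0.29 of each other. The control points spread over 0.96 to 1.18, with control 3 highest. The range of Per2 minus Cry1, a single pair without Arntl that is not plotted, was 1.03 in ANKO and 1.11 in controls.

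Of 81 other genes in 8 lists around the clock, all tested, 1 rose and none fell by edgeR, beside 0.488% and 1.1% of all genes; 15 (18.5%) had an unadjusted p under 0.05, beside 12.9%. All 8 lists were chosen with earlier results of these data known, so these shares are not independent of those results. The 1 gene that rose was Cipc, which encodes a CLOCK-interacting repressor. It had 52.1, 60.2 and 54.0 CPM in ANKO, against 37.4, 36.0 and 41.5 CPM in controls, so that every ANKO library was above every control. Its log2 fold change was 0.53 (SE 0.0958, adjusted p = 0.0405). The call was lost without any 1 of the libraries (adjusted p 0.0561 to 0.134), by limma-voom (0.0501), with robust=FALSE (0.0511) and with the muscle covariate (0.0900). Without any 1 library the log2 fold change ran from 0.47 to 0.61.

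Among the 10 accessory repressors, which include Cipc, 7 had a positive log2 fold change and the list median was 0.32. The groups did not overlap in 3 of them, all higher in ANKO, where 9.19% of all genes were so. Bhlhe40, or DEC1, a repressor that competes at E-boxes, had 65.8, 80.1 and 64.8 CPM in ANKO, against 46.1, 42.6 and 56.6 CPM in controls (adjusted p = 0.110). Id2, an inhibitor of helix-loop-helix factors, had 26.8, 26.7 and 27.7 CPM in ANKO, against 20.8, 16.2 and 19.5 CPM in controls (adjusted p = 0.0875). These genes were named after their values were seen, and neither passed edgeR's test, though DESeq2 called both (adjusted p = 0.0181 and 0.00995, where it called 4.6% of all genes). The kinases and ubiquitin ligases that act on PER and CRY, listed with the deubiquitinase gene Usp2, showed 0 calls among 13 genes by edgeR and by DESeq2. At an unadjusted p under 0.05 there were 0 by edgeR and 1 by DESeq2, and the median log2 fold change was -0.03. Csnk1e, casein kinase 1 epsilon, had the smallest p there, at 57.7 ± 5.58 CPM in ANKO and 49.0 ± 5.68 CPM in controls (SD, n = 3 each; adjusted p = 0.451). The other activators and ROR receptors had 0 of 5 past the test by edgeR and by DESeq2, with 0 at an unadjusted p under 0.05 by edgeR and 1 by DESeq2, and Rorb, the lowest in p, stood at 3.80 ± 0.241 CPM in ANKO and 2.70 ± 0.469 CPM in controls (adjusted p = 0.426).

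Of 11 output factors and other clock-controlled genes none passed edgeR's test. By that test 6 (54.5%) had an unadjusted p under 0.05, 4 higher and 2 lower in ANKO, beside 12.9% of all genes. This list was chosen with earlier results of these data known, so its share is not independent of them. DESeq2 called 2 higher and 1 lower, where it called 4.6% of all genes. Cdkn1a, the cell cycle inhibitor p21 and also a p53 target, lay at the threshold. It had 38.6, 54.7 and 41.6 CPM in ANKO, against 22.95, 29.1 and 21.4 CPM in controls (log2 fold change 0.88, SE 0.167, adjusted p = 0.0503). It was past the threshold under RLE and upper-quartile scaling (adjusted p = 0.0477 and 0.0393), without the low-count filter (0.0144) and by DESeq2 (0.000268). It was not past it by limma-voom (0.0594), with robust=FALSE (0.0655), with the muscle covariate (0.110) or without any 1 of the libraries (0.0526 to 0.148). The PAR-domain factors related to Dbp did not pass the test (adjusted p = 0.803 for Tef and 0.817 for Hlf). Tef stood at 158.5 ± 16.6 CPM in ANKO and 171.7 ± 27.7 CPM in controls, and Hlf at 27.0 ± 6.99 CPM in ANKO and 30.1 ± 3.58 CPM in controls (SD, n = 3 each). As with Dbp, control 3 was the highest library for both, at 200.3 CPM for Tef and 34.2 CPM for Hlf. For Hlf, ANKO 2 was nearly level with it at 33.7 CPM. Nfil3, the repressor that opposes Dbp at D-boxes, had 10.8, 11 and 6.32 CPM in ANKO, against 6.44, 8.62 and 3.61 CPM in controls, with control 3 lowest (adjusted p = 0.551).

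**Figure D4:**
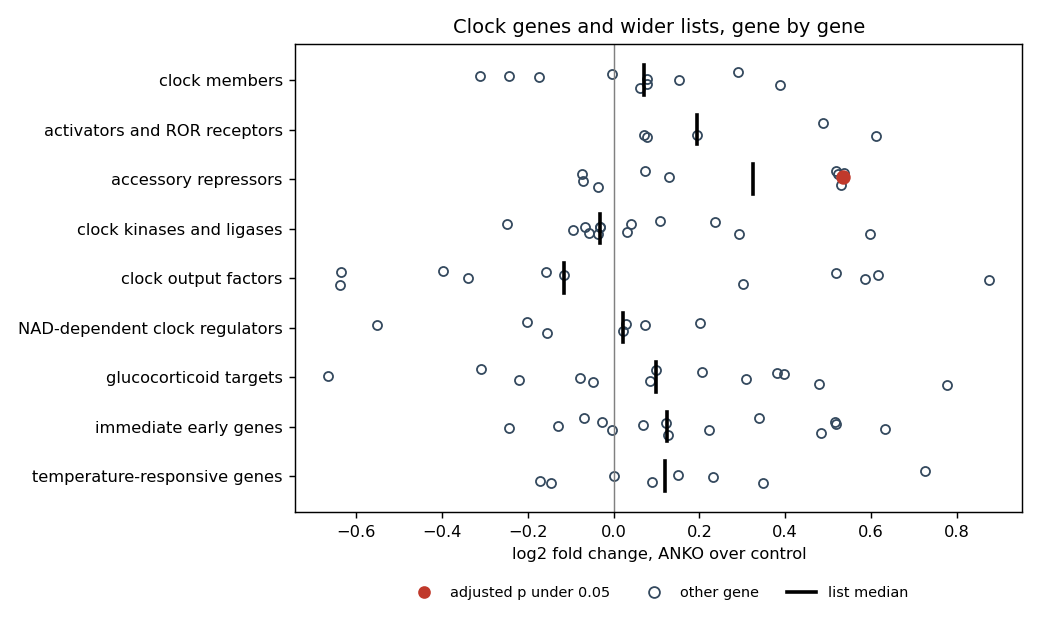
Log2 fold change, ANKO over control, of each clock gene and of each gene in the 8 wider lists; black bars are list medians and the filled red point is Cipc, the 1 gene past an adjusted p of 0.05. The clock genes lie between -0.31 and 0.39.

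None of 7 NAD-dependent regulators, co-repressors and coactivators that act on the clock passed the test by edgeR or DESeq2. By edgeR 1 (14.3%) had an unadjusted p under 0.05, beside 12.9% of all genes. That gene was Ppargc1a, the coactivator PGC-1alpha, at 9.08 ± 1.65 CPM in ANKO and 13.3 ± 3.74 CPM in controls (adjusted p = 0.357). Sirt1, the NAD-dependent deacetylase that acts on BMAL1 and PER2, stood at 29.5 ± 1.10 CPM in ANKO and 28.1 ± 1.86 CPM in controls (SD, n = 3 each; adjusted p = 0.830). The lists of glucocorticoid-responsive and immediate early genes had no call by edgeR either. In them 2 of 13 (15.4%) and 2 of 14 (14.3%) had an unadjusted p under 0.05, beside 12.9% of all genes. DESeq2 called 1 of each list, Zbtb16 (log2 fold change -0.66, adjusted p = 0.0319) and Jun (0.64, 0.0400), where it called 4.6% of all genes. Nr3c1, the glucocorticoid receptor, had the smallest p of its list by edgeR and was not called by DESeq2 (adjusted p = 0.0667). It stood at 162.4 ± 3.57 CPM in ANKO and 201.3 ± 14.8 CPM in controls (adjusted p = 0.152 by edgeR). The immediate early gene Jun stood at 110.6 ± 21.9 CPM in ANKO and 71.3 ± 14.8 CPM in controls (SD, n = 3 each; adjusted p = 0.212 by edgeR). Of 8 temperature-responsive genes, none was called by edgeR or DESeq2. By edgeR 1 (12.5%) had an unadjusted p under 0.05, beside 12.9% of all genes. It was the chaperone Hspa8, at 733.1 ± 33.3 CPM in ANKO and 576.3 ± 102.6 CPM in controls (adjusted p = 0.328).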

How the data were processed

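RNA of subcutaneous white fat from 3 ANKO and 3 control mice was measured. Per the labels' protocols, ribosomal RNA was depleted with Ribo-Zero Gold, and STAR 2.0.4b, Subread, featureCounts 1.45 and GRCm38 are named in the submitters' processing notes. Neither the annotation release nor the strand setting is stated. Deposited values are raw read counts per gene symbol, made by the authors, with 1 column per mouse. Of 40757 lines, 329 exact repeats were removed. Features were kept by filterByExpr (minimum count 10, total 15), scaled by TMM and tested with edgeR 4.0.16 (quasi-likelihood, robust=TRUE, R 4.3.3). Adjusted p-values are Benjamini-Hochberg over all 19272 genes, with a threshold of 0.05, and SEs are the log2 fold change over the square root of F. Alternatives used limma 3.58.1, DESeq2 1.42.0, other scalings and filters, a muscle covariate, a replicate block and leaving out each library. The genes and lists were chosen with earlier results of these data known. The genes named were the 10 clock genes, Nampt, the called member or else the member of smallest p in each list, and the nearest genes to Dbp and Arntl; others are said to be named after their values were seen or are given to describe a list. The steps were tested on simulated data: fold changes were recovered, and with gene-specific dispersions the share of false calls ran above the nominal level. The labels do not say whether the mice of a group shared a litter, so p-values measure the spread between these mice only. Promoter windows were RefSeq's.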

Additional observations from a re-analysis of the deposited data

How the results depend on the processing

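No clock gene was called in either direction under any of the 15 alternatives. The sign of Per1 turned to positive under RLE scaling (0.0048), without the low-count filter (0.0032), by DESeq2 (0.0049), with the replicate block (0.000354) and with the muscle covariate (0.0143). Leaving out 1 library gave log2 fold changes of -0.0848 to 0.111 for Per1, -0.0757 to 0.177 for Cry2 and -0.288 to 0.0861 for Dbp. It gave -0.323 to 0.0133 for Ndufb9 and -0.284 to 0.0653 for Ndufb8, the genes nearest to Dbp. In the 8 wider lists the 1 higher gene became 2 under RLE and upper-quartile scaling, 4 without the low-count filter, 6 by DESeq2, 0 by limma-voom and with robust=FALSE, and 0 to 1 when 1 library was left out, while DESeq2 called 2 lower. With the replicate block or the muscle covariate the count stayed at 1, but the gene was then Cdkn1a or Prkaa2 and not Cipc (adjusted p = 0.0942 and 0.0900). Over all genes, 94 higher became 167 without the filter, 388 by DESeq2, 62 by limma-voom, 62 with the replicate block, 49 with the muscle covariate and 20 to 107 without 1 library, and 212 lower became 498 by DESeq2, 112 with the muscle covariate and 55 to 221 without 1 library. The cause of these moves was not tested, beyond fewer libraries or more genes entering a fit. The replicate numbers gave correlations of 0.07, -0.03 and -0.04 between same-numbered libraries, and not every library correlated best with its own number, so they were not taken as pairs. The number of mice limits the precision.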

Other observations

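Over the 6 libraries, the genes whose pattern lay nearest to that of a clock gene were sought among 14435 genes averaging 1 CPM or more, by the root mean square difference of mean-centred log2 CPM. Nearest to Dbp were Ndufb9 (0.0653) and Ndufb8 (0.0734), which encode subunits of respiratory complex I, and Gprc5b (0.0774), an orphan receptor. Ndufb9 had 102.6, 118.0 and 96.6 CPM in ANKO 1, 2 and 3, against 99.2, 112.0 and 152.5 CPM in controls 1, 2 and 3, so that control 3 was highest, as for Dbp. Nearest to Arntl were Rps18-ps3 (0.0514), a pseudogene whose reads may be shared with its parent gene, Eif1ad (0.0548) and Bcl6 (0.0573), a transcriptional repressor. Bcl6 had 72.0, 76.2 and 66.5 CPM in ANKO, against 83.3, 58.2 and 52.8 CPM in controls, with control 1 highest and control 3 lowest. With 6 libraries and this many candidates, some close matches arise in any table.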
